A study of Sus scrofa with 15 samples.

Results

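Transcripts of 5 semaphorins (*SEMA4A*, *SEMA4B*, *SEMA4C*, *SEMA4D* and *SEMA7A*) and 4 of their receptors (the plexins *PLXNC1*, *PLXND1* and *PLXNB2*, and neuropilin 1, *NRP1*) were followed in 3 populations of porcine NK cells. These 9 genes, of 29886 in the count table, were chosen by gene family and with their levels in these same libraries known, so their differences between populations are given as a description, without a p-value for any of them, and counts of them past a threshold stand beside the share of all genes and support nothing. Blood gave 1 population of conventional (cNK) cells, which are CD8α-high, and liver gave a CD8α-high population and a CD8α-dim population, the liver-resident (lrNK) cells. All 3 came from each of the same 5 pigs, 6 months old, which gave 15 libraries, and pigs are numbered 1 to 5 throughout. Per the study's methods, the livers were perfused through the portal vein before the final flush from which lymphocytes were collected, and NK cells were purified as CD3-CD172a-CD8α+ cells by magnetic depletion followed by FACS. A sorted population is a gate, and RNA of other cells that fell within the gate is counted with it. The labels name no treatment or genetic modification, and the populations differed in tissue and in surface CD8α.

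Semaphorins are secreted or membrane-bound guidance proteins, first known from growing axons, that also act between immune cells. Their main receptors are plexins, whose cytoplasmic part switches off small GTPases of the R-Ras and Rap family and so alters integrin adhesion and the actin cytoskeleton, while neuropilins serve as co-receptors for secreted semaphorins and for VEGF. In the immune system, SEMA4D (CD100) on lymphocytes engages CD72 and B plexins and can be shed from the surface, whereas SEMA7A is anchored in the membrane by a lipid tail and binds plexin C1 and β1 integrins.

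Library totals ranged from 2003499 to 5680221 counts. Levels are given as CPM, each count divided by the library total after edgeR's TMM scaling and multiplied by 1000000, and since the libraries read each transcript from its 3′ end, a count does not grow with transcript length. A gene whose 3′ end is not annotated can lose reads, which bears on any comparison of levels between genes. On the first principal component, which held 77.7% of the variance, lrNK libraries lay from 25.3 to 28.6, blood libraries from -15.2 to -12.5 and liver CD8α-high libraries from -17.5 to -3.96, the last being pig 1. The lrNK library of pig 3 stood apart on the second component (17.2, with the other lrNK libraries at -7.47 to -1.33). *CD8A*, which encodes the protein of the gate, had 466 ± 149 CPM in blood, 490 ± 138 in liver CD8α-high and 43.4 ± 10.5 in lrNK cells (mean ± SD, n = 5 pigs each).

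All 10 NK cell markers examined had counts in every population, with a summed level of 4023 to 6682 CPM in blood, 5107 to 6241 in liver CD8α-high and 3475 to 11434 in lrNK cells. They did not move together. Against blood, 4 were called higher in lrNK cells by edgeR (*NCR1*, *KLRB1*, *NKG7* and *CD244*). The 2 called lower were *GZMB* (209 ± 115 CPM in blood, 32.9 ± 24.7 in lrNK cells) and *CD8A*. Of all genes tested, 18.2% were called in that comparison. Markers of some other cells also moved with the lrNK population. The summed level of 6 B cell markers was 51.9 to 128 CPM in blood, 17.9 to 59.7 in liver CD8α-high and 258 to 707 in lrNK libraries, and 4 of them rose in lrNK cells against blood by edgeR's quasi-likelihood test, while *CD79A* was at 0 in all libraries. The 7 dendritic cell markers summed to 6.85 to 14.7, 0 to 13.4 and 46.6 to 114 CPM in the same order, with 3 that rose (*TCF4*, *BCL11A* and *XCR1*). *CLEC9A* was at 0 in all libraries, and *FLT3* and *IL3RA* had 6 and 3 counts over all libraries, 0 of them in lrNK cells. The summed level of the 5 T cell markers was 110 to 593 CPM in lrNK cells, 637 to 1203 in blood and 714 to 1076 in liver CD8α-high cells. Most of it was *CD3G*, the only one that passed the test, lower in lrNK cells. *CD3E* was also lower, with 2.12 ± 3.07 CPM in lrNK cells and 10.2 ± 13.6 in blood. It passed against liver CD8α-high cells with the pig as a block (edgeR adjusted p = 0.0418, and 0.381 without the block). *CD3D* had 8.43 ± 4.67 CPM in lrNK cells and 3.78 ± 2.16 in blood, and *CD5* was at 0 in all libraries. Monocyte, endothelial and hepatocyte markers summed to at most 25.6, 14.1 and 8.14 CPM in any library, with *LYZ* the only one of them that passed the test, against liver CD8α-high cells (edgeR adjusted p = 0.0272, and 0.0512 with the pig as a block), and the 3 platelet markers found, most of whose counts were *GP9*, summed to 72.3 to 178 CPM in lrNK cells and 73.4 to 117 CPM in the CD8α-high populations. In sorted bulk samples, fewer cells that express a gene and less of its RNA per cell cannot be told apart.

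The 9 genes differed most in which of them carried the counts. Their summed level was 485 to 770 CPM in blood, 461 to 701 in liver CD8α-high and 713 to 1114 in lrNK cells. *SEMA4D* held 70.1% ± 5.90 of the summed counts in blood and 64.0% ± 8.45 in liver CD8α-high cells, but 2.36% ± 1.29 in lrNK cells (mean ± SD, n = 5). In lrNK cells *PLXNC1* held 61.7% ± 4.01, *SEMA7A* 15.2% ± 3.99 and *NRP1* 8.23% ± 3.77, against 3.06%, 0.441% and 1.58% in blood. These shares are over the 9 genes alone and leave out *SEMA6D*, the most counted gene of the family, and the count of *PLXNC1* in lrNK cells is uncertain, since it nearly equalled that of the overlapping gene *CEP83* in each lrNK library (ratio 0.986 to 1.11).

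**Figure D1:**
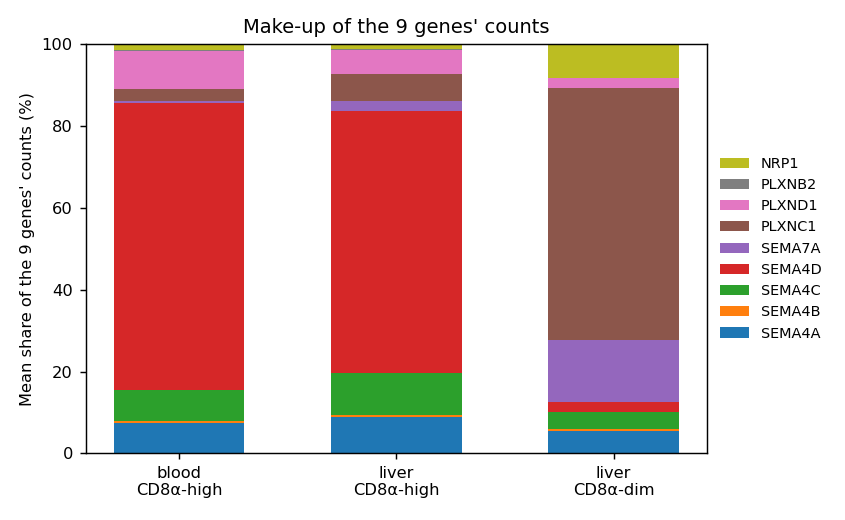
Mean share (%) of the summed counts of the 9 genes that each gene held, per population (n = 5 pigs each). *SEMA4D* made up 70.1% in blood and 64.0% in liver CD8α-high cells, and *PLXNC1*, whose count is uncertain through its overlap with *CEP83*, made up 61.7% in lrNK cells.

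Among the ligands, *SEMA4D* was the most abundant of the 5 in both CD8α-high populations and the second least abundant in lrNK cells. In the pig assembly Sscrofa11.1, its position is 957074 to 1078522 of chromosome 14. In blood, pigs 1 to 5 had 417, 334, 338, 602 and 418 CPM. In liver CD8α-high cells the same pigs had 356, 305, 301, 461 and 389 CPM, and in lrNK cells 27.4, 25.9, 3.90, 20.2 and 21.7 CPM, from 8 to 83 counts. Each lrNK library was far under every library of the other populations, and the lowest value was the lrNK library of pig 3. The fitted log2 fold change was -4.40 ± 0.32 (SE) against blood and -4.18 ± 0.31 against liver CD8α-high cells. Liver CD8α-high cells were lower than blood in each of the 5 pigs, by a small and even amount (mean within-pig difference -0.20 on the log2 CPM scale, SD 0.11, range -0.39 to -0.10), although the values of both populations overlapped and the fitted log2 fold change was -0.22 ± 0.27.

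*SEMA7A*, on chromosome 7 from 59094919 to 59119534, encodes the membrane-anchored semaphorin that binds plexin C1, and its pattern ran opposite to that of *SEMA4D*. Blood cells had 5.69, 3.02, 0.54, 0.72 and 3.07 CPM in pigs 1 to 5, from 2 to 21 counts, so these levels are imprecise. Liver CD8α-high cells had 45.6, 7.12, 12.8, 7.76 and 3.34 CPM. In lrNK cells it had 67.7, 121, 102, 156 and 216 CPM. The order blood, liver CD8α-high, lrNK held in all 5 pigs, and no lrNK library overlapped with the others, but the values of blood and liver CD8α-high cells overlapped. The pig with the highest liver CD8α-high value, pig 1, had the lowest lrNK value. The log2 fold change of lrNK cells was 5.63 ± 0.65 against blood and 3.15 ± 0.55 against liver CD8α-high cells. That of liver CD8α-high cells against blood was 2.47 ± 0.63. Without the liver CD8α-high library of pig 1, the value against liver CD8α-high cells was 4.10 and that of liver CD8α-high cells against blood was 1.53.

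The remaining 3 semaphorins, all membrane-bound members of class 4, showed smaller differences. *SEMA4A*, a semaphorin of antigen-presenting cells and activated T cells that lies on chromosome 4 from 93865054 to 93892995, had 60.7, 51.8, 34.7, 39.8 and 30.4 CPM in blood and 49.0, 54.6, 39.9, 48.1 and 52.8 CPM in liver CD8α-high cells of pigs 1 to 5. In lrNK cells it ranged more widely, with 25.3, 46.1, 51.1, 28.6 and 89.8 CPM. All 3 populations overlapped, with means of 43.5 ± 12.5, 48.9 ± 5.69 and 48.2 ± 25.8 CPM (SD, n = 5). The log2 fold change of lrNK cells was 0.15 ± 0.29 against blood and -0.02 ± 0.29 against liver CD8α-high cells, and these differences were within their standard errors.

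*SEMA4C*, a ligand of plexin B2, lies on chromosome 3 from 56750745 to 56760835. It had 72.4, 40.6, 34.2, 41.6 and 35.1 CPM in blood of pigs 1 to 5, 70.8, 50.4, 63.0, 53.6 and 51.6 CPM in liver CD8α-high cells, and 24.5, 39.4, 52.6, 21.6 and 23.5 CPM in lrNK cells. In each of the 5 pigs the lrNK library was lower than the liver CD8α-high library (log2 fold change -0.85 ± 0.27), although the highest lrNK value, that of pig 3, lay above the lowest liver CD8α-high values. Against blood the log2 fold change was -0.48 ± 0.27 for lrNK cells and 0.37 ± 0.27 for liver CD8α-high cells, and the values overlapped in both comparisons. Leaving out 1 pig moved the value of lrNK cells against blood to between -0.81 (without pig 3) and -0.15 (without pig 1).

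*SEMA4B*, on chromosome 7 from 55752854 to 55793982, was near the limit of detection throughout, with 0 to 33 counts per library. Its mean was 2.57 ± 1.35 CPM in blood, 3.15 ± 2.27 in liver CD8α-high cells and 3.44 ± 3.04 in lrNK cells. The populations overlapped and a difference was not detectable at this depth (log2 fold change of lrNK cells 0.42 ± 0.85 against blood and 0.12 ± 0.84 against liver CD8α-high cells).

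**Figure D2:**
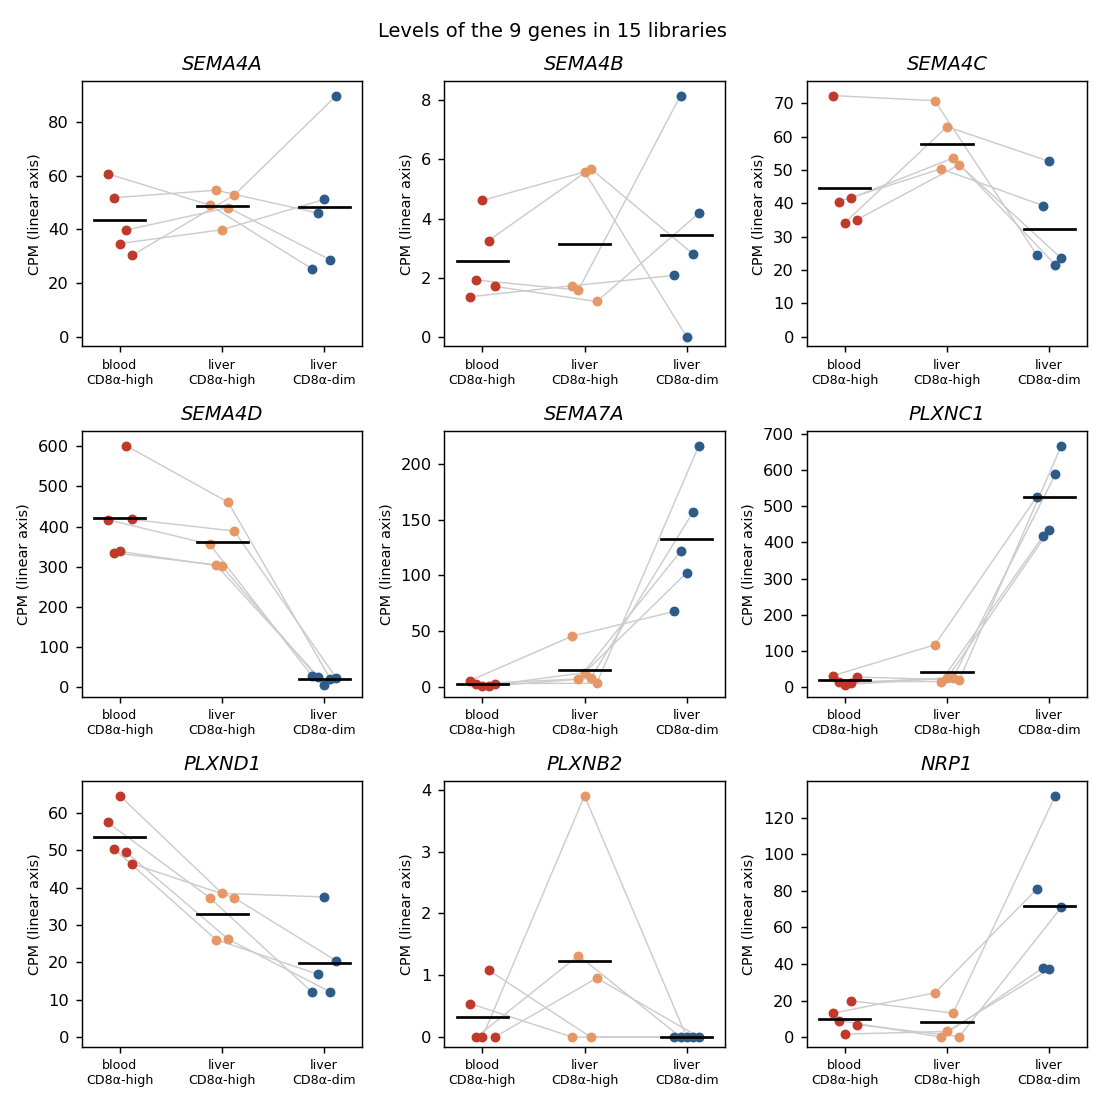
Level (CPM, linear axis, a scale per gene) of the 9 genes in the 15 libraries, 1 point per library, with a black bar at the mean and grey lines that join the libraries of a pig. *SEMA4D* was lowest in lrNK cells (3.90 to 27.4 CPM), where *SEMA7A* (67.7 to 216 CPM) and *PLXNC1* (417 to 668 CPM) were highest.

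Among the receptors, *PLXNC1*, which encodes the receptor of SEMA7A, had 30.9, 14.5, 6.51, 12.3 and 27.3 CPM in blood of pigs 1 to 5. Liver CD8α-high cells had 116, 15.03, 24.0, 25.5 and 19.6 CPM, and lrNK cells had 527, 417, 433, 588 and 668 CPM. The lrNK libraries were separate from all others, while the CD8α-high populations overlapped. The liver CD8α-high library of pig 1 was the highest of its population for *PLXNC1*, as it was for *SEMA7A*, and it was also the library of its population nearest to the lrNK cells on the first principal component. The log2 fold change of lrNK cells was 4.85 ± 0.51 against blood and 3.74 ± 0.48 against liver CD8α-high cells. That of liver CD8α-high cells against blood was 1.11 ± 0.47. Without the liver CD8α-high library of pig 1, the value against liver CD8α-high cells was 4.64 and that of liver CD8α-high cells against blood was 0.20. Expressed within pigs, *PLXNC1* was higher in lrNK than in liver CD8α-high cells in 5 of 5 pigs, by 2.17 to 5.05 on the log2 CPM scale.

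*PLXNC1* (chromosome 5, 88900238 to 89055837) shares 9637 bases with *CEP83* (chromosome 5, 88770706 to 88909874), a gene for a protein of the base of cilia, and the strand setting of the counting is not given in the sources used here. *CEP83* had 72.1, 46.3, 28.8, 49.9 and 90.4 CPM in blood of pigs 1 to 5, 147, 52.7, 58.0, 87.9 and 53.0 CPM in liver CD8α-high cells, and 519, 411, 480, 602 and 658 CPM in lrNK cells. The counts of both genes were nearly equal in the lrNK libraries, with *CEP83* minus *PLXNC1* at -18, -12, 96, 51 and -36 counts and a ratio of 0.986 to 1.11. In blood *CEP83* exceeded *PLXNC1* by 82 to 185 counts (ratio 2.33 to 4.42) and in liver CD8α-high cells by 88 to 362 counts (ratio 1.26 to 3.51). On the CPM scale this difference was 39.2 ± 15.2 in blood and 39.6 ± 13.0 in liver CD8α-high cells, and 7.69 ± 23.8 in lrNK cells (SD, n = 5). *CEP83* alone had a log2 fold change of 3.22 ± 0.31 for lrNK cells against blood and 2.75 ± 0.30 against liver CD8α-high cells. With the counts of both genes summed, the log2 fold change was 3.81 against blood and 3.15 against liver CD8α-high cells. Whether reads from the shared bases were counted for both genes was not tested, and the level of *PLXNC1* is uncertain to that extent.

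**Figure D3:**
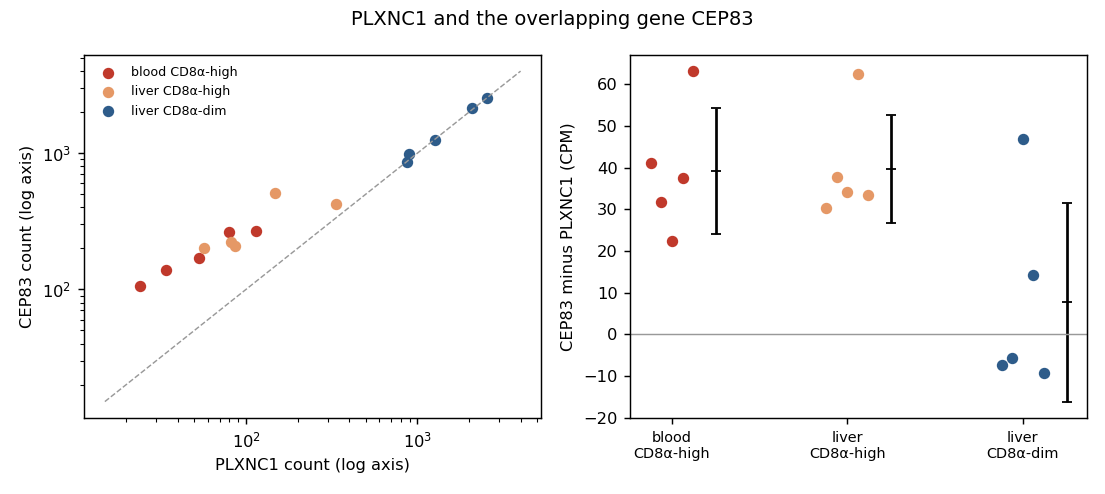
Left, counts of *CEP83* against counts of *PLXNC1* in the 15 libraries (both axes logarithmic, dashed line at equal counts), and right, their difference in CPM per library with mean ± SD (n = 5 pigs each). The lrNK libraries lie along the line of equal counts (ratio 0.986 to 1.11), and all libraries of the CD8α-high populations lie above it.

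*PLXND1* encodes a plexin that binds secreted SEMA3E without a neuropilin and also binds SEMA4A, and it lies on chromosome 13 from 68946658 to 68996625. Pigs 1 to 5 had 57.4, 50.4, 64.6, 49.5 and 46.4 CPM in blood, 37.3, 26.1, 38.5, 26.2 and 37.3 CPM in liver CD8α-high cells, and 12.04, 16.8, 37.5, 12.1 and 20.4 CPM in lrNK cells. The order blood, liver CD8α-high, lrNK, from high to low, held in all 5 pigs. Neither liver population overlapped with blood, whereas the 2 liver populations overlapped through the lrNK library of pig 3. The log2 fold change of lrNK cells was -1.45 ± 0.29 against blood and -0.75 ± 0.29 against liver CD8α-high cells, and that of liver CD8α-high cells against blood was -0.70 ± 0.28. *PLXND1* was the only 1 of the 9 genes whose blood and liver CD8α-high libraries did not overlap.

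*NRP1*, on chromosome 10 from 56280673 to 56430832, encodes the co-receptor for class 3 semaphorins and VEGF. It had 13.0, 9.05, 1.63, 19.9 and 6.82 CPM in blood of pigs 1 to 5, 24.2, 0, 3.07, 13.1 and 0.24 CPM in liver CD8α-high cells, and 81.0, 37.9, 37.0, 132 and 71.0 CPM in lrNK cells. All lrNK libraries lay above all others, and the CD8α-high populations overlapped. The log2 fold change of lrNK cells was 2.85 ± 0.78 against blood and 3.17 ± 0.79 against liver CD8α-high cells. That of liver CD8α-high cells against blood was -0.32 ± 0.78. Without the liver CD8α-high library of pig 1, the last 2 values were 4.04 and -1.20. *NRP1* is also a gene of plasmacytoid dendritic cells. Of their markers in the list, *IL3RA* had 3 counts over all libraries and 0 in lrNK cells, too few to compare populations. *TCF4* had 48.5 ± 22.7 CPM in lrNK cells, against 8.12 ± 4.20 in blood, and *BCL11A* 16.5 ± 10.03 CPM, against 1.67 ± 1.78. In the lrNK libraries of pigs 1 to 5 the dendritic cell markers summed to 76.8, 114, 81.8, 46.6 and 50.4 CPM and the B cell markers to 462, 664, 258, 707 and 267 CPM. Their part in the levels of *NRP1*, *SEMA7A* and *PLXNC1* was not tested. A lncRNA, *LOC102161921*, shares 9552 bases with *NRP1* and had 233 counts over all libraries, against 1412 for *NRP1*.

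*PLXNB2*, on chromosome 5 from 390347 to 416805, encodes a receptor of SEMA4C and SEMA4D and was almost undetected. Its counts in pigs 1 to 5 were 2, 0, 0, 3 and 0 in blood, 0, 5, 14, 0 and 4 in liver CD8α-high cells, and 0 in each lrNK library. The lrNK libraries together held 13887054 counts, so 0 counts allows a level of up to 0.216 CPM before TMM scaling, which covers counting error only. *PLXNB2* did not pass the filter on low counts and no fold change is given, while the other 8 genes passed.

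Read together, 5 of the 8 genes that passed the filter had an adjusted p under 0.05 between lrNK cells and blood (*SEMA7A*, *PLXNC1* and *NRP1* higher, *SEMA4D* and *PLXND1* lower), where 18.2% of all 10939 genes tested did. The libraries of both populations did not overlap for the same 5 genes, as they did not for 13.5% of all genes. Between lrNK and liver CD8α-high cells the count was also 5 of 8 (*SEMA7A*, *PLXNC1* and *NRP1* higher, *SEMA4D* and *SEMA4C* lower), where 14.6% of all genes were called. With the pig as a block *PLXND1* was called as well, and the share of all genes was not computed for that fit. For 4 genes the libraries of lrNK and liver CD8α-high cells did not overlap, as for 11.9% of all genes. Between liver CD8α-high cells and blood edgeR called 0 of 8 genes, and 0.064% of all genes, and DESeq2 called 0 of 7 with an adjusted p. In this last comparison the libraries of *PLXND1* did not overlap, as for 2.01% of all genes. Because the genes were selected on these values, these counts are no test of the genes and nothing is read from them. The lrNK libraries enter both of the first comparisons, which are therefore not independent.

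**Figure D4:**
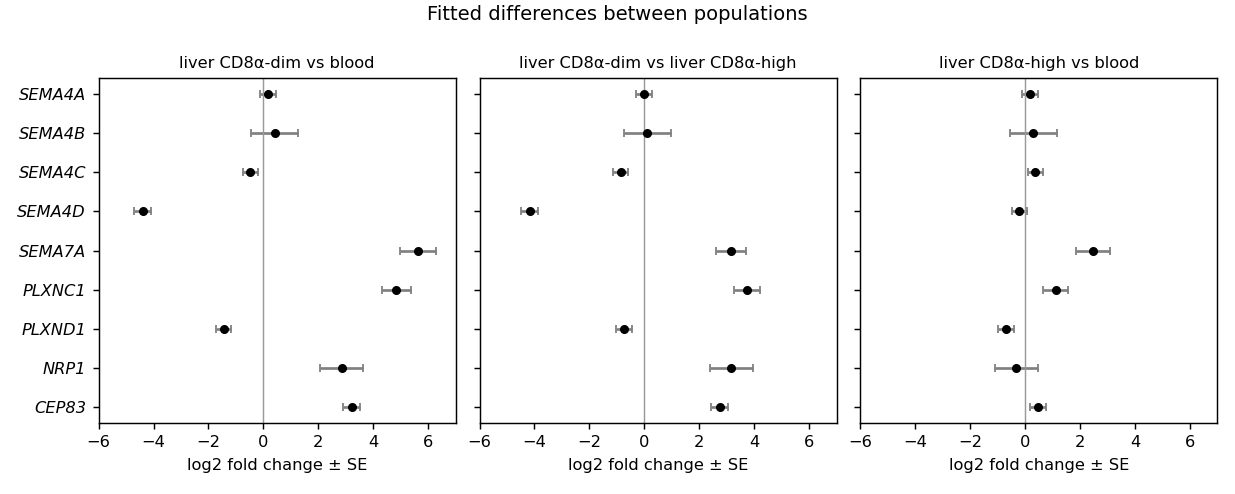
Fitted log2 fold change ± SE of the 8 genes that passed the filter and of *CEP83*, in the 3 comparisons (all 15 libraries in 1 edgeR fit). *SEMA4D* lies at -4.40 and *SEMA7A* at 5.63 for lrNK cells against blood, and *SEMA4A* and *SEMA4B* lie within 1 SE of 0.

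Over the 15 libraries, the genes whose log2 CPM was most like that of *SEMA7A* among 10938 genes were *KLRF1* (Pearson's r = 0.96), which encodes the NK receptor NKp80, *PLXNC1* (0.96), *IPCEF1* (0.96), *COTL1* (0.95) and *CXHXorf21* (0.95). The genes most like *PLXNC1* were *CEP83* (0.99), *LYST* (0.98), *KLRF1* (0.97), *EOMES* (0.97) and *WNT5B* (0.97). These values are a description, since the libraries fall into clusters by population and share pigs.

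Other genes of the pathway, which are not among the 9, were counted from 3 lists. Of 22 further semaphorins, plexins and neuropilins, 6 had no count in any library, and only *SEMA4F*, *SEMA6C*, *SEMA6D* and *PLXNA3* passed the filter. *SEMA6D*, which encodes a transmembrane ligand of plexin A1, was the most counted gene of the whole family. It had 1089.9, 989.8, 965, 1503 and 1215 CPM in blood of pigs 1 to 5, 787, 996, 897, 1255 and 1204 CPM in liver CD8α-high cells, and 358, 336, 424, 575 and 649 CPM in lrNK cells. Each lrNK library lay under every other library, and *SEMA6D* fell in lrNK cells by 1.30 ± 0.20 on the log2 scale against blood (edgeR, adjusted p = 5.64e-05) and by 1.13 ± 0.19 against liver CD8α-high cells (adjusted p = 2.89e-04). *SEMA6C* (log2 fold change -1.15 ± 0.73 against blood, edgeR adjusted p = 0.325) and *PLXNA3* (0.30 ± 0.78, adjusted p = 0.851) were counted at low levels and did not pass the test, and neither did *SEMA4F*. *PLXNA1* had a mean of 1.02 CPM over all libraries and *PLXNB1*, a receptor of SEMA4D, 0.95 CPM. No plexin other than *PLXNC1* and *PLXND1* had a mean level above that of *PLXNA3*, 7.47 CPM.

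Of 14 genes whose proteins bind, shed or form receptor complexes with semaphorins, 7 passed the filter and 1 of these changed (14.3%), which is no larger a share than that of all genes tested (18.2% against blood and 14.6% against liver CD8α-high cells). *ITGA1*, which encodes the α1 integrin that pairs with β1 to bind SEMA7A, had 312 ± 79.3 CPM in blood, 315 ± 88.6 in liver CD8α-high and 91.1 ± 26.7 in lrNK cells, and fell in lrNK cells (log2 fold change -1.77 ± 0.24 against blood, edgeR adjusted p = 1.76e-05, and -1.79 ± 0.24 against liver CD8α-high, adjusted p = 2.13e-05). *ITGA1* shares 15850 bases with *PELO*, which had 4400 counts against 13238, so its level is uncertain to that extent. *ITGB1*, the β1 partner, had 682 ± 181, 668 ± 172 and 938 ± 306 CPM and did not pass (log2 fold change against blood 0.46 ± 0.23, edgeR adjusted p = 0.192, and 0.0317 without pig 3). *PTPRC*, which encodes CD45, a partner of SEMA4D on lymphocytes, had 6643 ± 457, 6385 ± 63.7 and 6618 ± 642 CPM (log2 fold change against blood -0.01 ± 0.12, adjusted p = 0.986). *CD72*, the lymphocyte receptor of SEMA4D, had a mean of 1.88 CPM and was not tested.

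Of 30 genes for small GTPases, kinases and cytoskeletal proteins that act after plexins, 21 passed the filter. In lrNK cells 3 of them rose and 4 fell against blood, and the same 7 genes passed in the same direction against liver CD8α-high cells. This is 33.3% of the 21, beside 18.2% and 14.6% of all genes tested. The median log2 fold change of the 21 was -0.49 against blood and -0.25 against liver CD8α-high cells, with 0.01 and 0.02 over all genes tested. *TIAM1*, a guanine exchange factor of Rac, had 23.0 ± 7.47 CPM in blood, 13.3 ± 3.85 in liver CD8α-high and 1.26 ± 1.15 in lrNK cells, the last from 0 to 11 counts (log2 fold change -4.09 ± 0.55 against blood, edgeR adjusted p = 1.28e-05). *FLNA*, the actin cross-linker filamin A, had 1109 ± 114, 977 ± 100.2 and 202 ± 149 CPM (log2 fold change -2.46 ± 0.30, adjusted p = 3.74e-06), and its lrNK level was 103 to 167 CPM in 4 pigs and 464 CPM in pig 3.

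The small GTPases Rap1A and Rap1B, direct substrates of plexins, moved in opposite directions. *RAP1B* fell from 1348 ± 119 CPM in blood and 1259 ± 103 in liver CD8α-high cells to 465 ± 70.4 in lrNK cells (log2 fold change -1.53 ± 0.14, edgeR adjusted p = 6.58e-08, and -1.44 ± 0.14, adjusted p = 1.76e-07). *RAP1A* rose from 346 ± 62.9 CPM in blood to 637 ± 194 in lrNK cells (log2 fold change 0.88 ± 0.20, adjusted p = 0.00341), in 4 of 5 pigs, with the lrNK library of pig 3 at 301 CPM and the other lrNK libraries at 669 to 786 CPM. Against liver CD8α-high cells its log2 fold change of 0.65 ± 0.20 passed with an adjusted p of 0.0311, but not without pig 1, 2, 4 or 5 (0.0869 to 0.162), nor when only both populations were fitted (0.0626). *FYN*, a kinase of the Src family, rose from 478 ± 79.1 to 913 ± 186 CPM against blood (log2 fold change 0.94 ± 0.17, adjusted p = 3.70e-04).

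*LIMK1*, a kinase of cofilin, rose from 15.7 ± 5.63 to 36.3 ± 12.2 CPM against blood (log2 fold change 1.22 ± 0.36, edgeR adjusted p = 0.0197), a call lost without pig 1 (0.0749) or pig 5 (0.0915), and against liver CD8α-high cells (1.26 ± 0.36, adjusted p = 0.0194) it was lost without pig 2 (0.0611) or pig 5 (0.192). *PIP5K1C*, a kinase that makes a phosphoinositide for talin, fell from 43.4 ± 12.8 to 21.6 ± 12.2 CPM against blood (log2 fold change -1.02 ± 0.32, adjusted p = 0.0268), a call lost without pig 2, 4 or 5 (0.0596 to 0.162) and when only both populations were fitted (0.0724). Against liver CD8α-high cells (-1.04 ± 0.32, adjusted p = 0.0283) it was lost without pig 1, 2, 4 or 5 (0.0818 to 0.135) and without the liver CD8α-high library of pig 1 (0.0609). *RAC2*, the most counted gene of this list, had 1775 ± 519 CPM in blood, 1680.3 ± 186 in liver CD8α-high and 1162 ± 404 in lrNK cells. Its log2 fold change against blood of -0.61 ± 0.24 did not pass (adjusted p = 0.0817, and 0.0419 with the pig as a block).

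Over the 3 lists together, 9 of 32 genes (28.1%) passed in each comparison with lrNK cells, 3 that rose and 6 that fell, where 18.2% of all genes tested passed against blood and 14.6% against liver CD8α-high cells. Against liver CD8α-high cells the number that rose was 1 without pig 2 or pig 5 and 5 with DESeq2. Between liver CD8α-high cells and blood edgeR called 0 of the 32, where it called 0.064% of all genes tested. DESeq2 called 0 of the 31 with an adjusted p. The p-values of the main fit measure the spread of libraries within populations, from these 5 pigs, and leave out the pairing by pig.

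**Figure D5:**
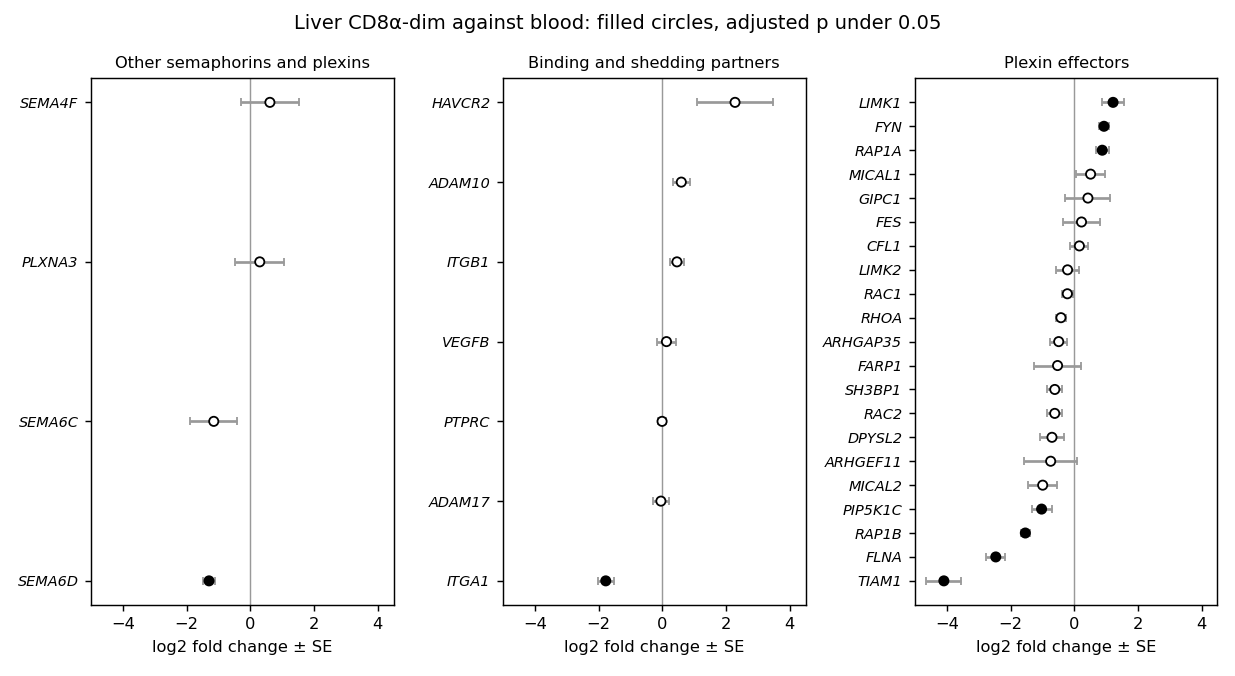
Log2 fold change ± SE of lrNK cells against blood for the 32 tested genes of the 3 lists of further pathway genes, with filled circles for an adjusted p under 0.05 (edgeR, n = 5 pigs each). The circles furthest to the left are *TIAM1* (-4.09), *FLNA* (-2.46), *ITGA1* (-1.77) and *RAP1B* (-1.53).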

How the data were processed

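RNA of 3 sorted NK cell populations of 5 pigs was sequenced with a 3′ mRNA kit. The authors trimmed the reads with QuasR, aligned them with HISAT2 (through Rhisat2) to Sscrofa11.1 and deposited raw counts per gene, which are whole numbers. How reads were counted, including strand and overlapping genes, is not given in the sources used here. All 15 columns matched a sample and 0 did not.

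Counts were analysed with edgeR 4.0.16 in R 4.3.3. After TMM scaling and edgeR's default filter, 10939 genes were tested by quasi-likelihood in 1 fit of the 15 libraries, with p-values adjusted over them by the Benjamini-Hochberg method and a threshold of 0.05. That fit had a term for the population and none for the pig, so it left out the pairing. A standard error is the log2 fold change divided by the square root of F. Log2 CPM used a prior count of 2. Principal components used the 500 most variable genes. Plots were made in Python 3.11.15 (matplotlib 3.10.9). Positions of 29862 genes were matched in a RefSeq table of Sscrofa11.1 that gives no strand.

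Libraries pair by pig: the labels name the individual, and the study's methods state that blood and liver came from the same animals. Deviations from population means correlated with a mean r of 0.11 for the same pig (15 pairs, -0.02 to 0.19) and -0.03 for different pigs (60 pairs). No pair of libraries within a population was identical (chi-square per degree of freedom 9.41 to 46.7, 30 pairs). Alternatives were DESeq2 1.42.0, its size factors in edgeR, no filter on counts, the pig as a block, fitting just the populations of a comparison, *PLXNC1* and *CEP83* summed, and leaving out each pig.

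The members and lists were chosen with earlier results of these data known. Named were all 9 genes, *CEP83*, the genes of each pathway list with an adjusted p under 0.05 in any comparison (at most 5 per list and comparison, by size of the log2 fold change) and the 3 with the highest mean CPM, and the 5 genes most like *SEMA7A* and *PLXNC1*. Markers were named where they passed the test or were at 0 in all libraries. *FYN*, *RAP1A*, *SEMA4F*, *PLXNA1*, *PLXNB1*, *CD72*, *SH3BP1*, *MICAL2*, *DPYSL2*, *GIPC1* and the markers *CD3D*, *CD3E*, *FLT3*, *IL3RA* and *GP9* were named after their values were seen.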

Additional observations from a re-analysis of the deposited data

Results flagged for a closer look

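The rule used flags about 1 in 20 sets by chance when values are independent and normal, which CPM of shared libraries need not be. No excess is therefore read from the number flagged. In 7 of 71 sets of 5 libraries examined (a gene in a population), 1 library lay far from the other 4. For the 9 genes these were *SEMA4C* in blood of pig 1, at 72.4 CPM with the others at 34.2 to 41.6 CPM, *SEMA7A* in liver CD8α-high cells of pig 1, at 45.6 CPM with the others at 3.34 to 12.8 CPM, and *PLXNC1* in the same library, at 116 CPM with the others at 15.03 to 25.5 CPM. That library was also the nearest of its population to the lrNK cells on the first principal component.

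Among the further pathway genes, the lrNK library of pig 3 was set apart for *RAP1A*, at 301 CPM with the others at 669 to 786 CPM, and for *FLNA*, at 464 CPM with the others at 103 to 167 CPM. *ITGA1* was low in blood of pig 1, at 177 CPM with the others at 330 to 386 CPM. *PLXNA3* was high in blood of pig 5, at 17.7 CPM with the others at 2.71 to 6.03 CPM. These libraries were kept, and no explanation was tested.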

How the results depend on the processing

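Of 360 values recomputed under alternatives, 1 moved past its limit. The limit was 1 SD of the gene's within-pig differences for a fold change, and a factor of 1.5 for a number of genes called. The log2 fold change of *PLXNC1* in lrNK cells against blood was 3.81 with the counts of *CEP83* added, and 4.85 without (SD 0.75). The SD is wide for some genes (1.93 for *SEMA7A* against liver CD8α-high cells), so smaller moves are given below. The total of pathway genes called stayed within 1.5 times, but the number that rose against liver CD8α-high cells was 3 with all pigs, 1 without pig 2 or pig 5 and 5 with DESeq2. Leaving out each pig in turn, the number of pathway genes called was 7 to 12 against blood and 6 to 11 against liver CD8α-high cells (9 in each with all pigs), and 0 in all fits between the CD8α-high populations. With the replicate block, in which libraries are paired by pig, the numbers were 11, 10 and 0. The block added *RAC2*, *SH3BP1* (adjusted p = 0.018 against 0.0766) and, against liver CD8α-high cells, *MICAL2* (0.0242 against 0.0519), and changed no other pathway call, while among the markers *LYZ* was lost and *CD3E* gained (adjusted p = 0.0418 against 0.381) against liver CD8α-high cells. DESeq2, run without the filter on counts, called 10, 13 and 0 of the 42, 42 and 31 pathway genes to which it gave an adjusted p. Among the 9 genes, leave-one-out log2 fold changes of lrNK cells against blood ran from -4.57 to -4.22 for *SEMA4D*, 5.35 to 6.32 for *SEMA7A*, 4.69 to 5.14 for *PLXNC1*, -1.73 to -1.29 for *PLXND1* and 2.73 to 2.97 for *NRP1*. Those of *SEMA4A* (-0.30 to 0.48) and *SEMA4B* (-0.23 to 1.05) changed sign, as they did against liver CD8α-high cells (-0.35 to 0.15 and -0.61 to 0.71). Against liver CD8α-high cells the range was 2.64 to 4.27 for *SEMA7A*, 3.46 to 4.64 for *PLXNC1*, 2.85 to 4.00 for *NRP1* and -1.06 to -0.69 for *SEMA4C*, the highest of the first 3 without pig 1. Fits without the liver CD8α-high library of pig 1 or the lrNK library of pig 3 were added after seeing the data, and without the latter the pathway genes called numbered 11 against blood and 12 against liver CD8α-high cells. The genes gained were *DPYSL2* (log2 fold change -1.43 against blood, adjusted p = 3.85e-04, and 1.08e-04 against liver CD8α-high cells) and *MICAL2* (0.00566 and 0.00125) in both comparisons, and *GIPC1* (0.0446) against liver CD8α-high cells. Depth limits *SEMA4B*, *PLXNB2* and the blood level of *SEMA7A*.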
